A study of Homo sapiens with 12 samples.

Results

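The clustered protocadherins are cell surface proteins of the cadherin superfamily encoded by 3 gene clusters on the long arm of human chromosome 5. All protein-coding genes of GENCODE v44 on chromosome 5 whose symbols start with PCDHA, PCDHB or PCDHG were taken, without use of any measured value. These were 53 genes of 20020 protein-coding genes, namely 15 PCDHA genes (GRCh38, chr5:140786136-141012347), 16 PCDHB genes (chr5:141051374-141249365) and 22 PCDHG genes (chr5:141330514-141512977), all on the plus strand. Chromatin accessibility at them was measured by ATAC-seq, in which the Tn5 transposase cuts open chromatin and the fragments over a site are counted. The 12 libraries came from DU-145 cells, a castration-resistant prostate cancer (CRPC) line, and BT-549 cells, a triple-negative breast cancer (TNBC) line, treated with vehicle (0.1% DMSO) or doxycycline (DOX), with 3 replicates per line and treatment that the study describes as biologically independent. In both lines and in both treatments the cells carried the tetracycline-inducible MUC1 short hairpin RNA, which DOX switches on, so an effect of MUC1 silencing and an effect of DOX itself cannot be told apart here. MUC1 transcript was not measured in these libraries, so the silencing could not be checked in them. For the silencing, the study refers to immunoblots of both cell lines treated with vehicle or DOX.

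In the α and γ clusters, each variable exon has its own promoter and is spliced to a set of shared exons at the 3′ end of the cluster, whereas each β gene is a single exon. A cell uses a few of these promoters, and the resulting combination of isoforms on its surface mediates homophilic recognition, which is best known from neurons, where it serves self-avoidance of dendrites and axons. Promoter choice is linked to DNA methylation, to CTCF and cohesin, and to distant enhancers, and most variable promoters carry a short conserved element with the core CGCT. The genes with a C in the last part of their symbol (PCDHAC1, PCDHAC2, PCDHGC3, PCDHGC4 and PCDHGC5), called C types, lie at the 3′ end of their arrays and are known for more constitutive use than the alternate genes before them.

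The stretches just upstream of the annotated starts are shown for the member of each cluster with the highest coverage per bin in the vehicle libraries of both lines (PCDHAC1, PCDHB2 and PCDHGC3), each followed by the first member in gene order without an accessible bin or a called peak in any library. They run from 150 to 21 bases before the RefSeq start (GRCh38.p14, plus strand), and capitals mark CGCT or its reverse complement AGCG.
PCDHAC1: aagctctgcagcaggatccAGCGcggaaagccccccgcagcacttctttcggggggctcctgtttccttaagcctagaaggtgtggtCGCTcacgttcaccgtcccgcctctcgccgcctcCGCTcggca
PCDHA8: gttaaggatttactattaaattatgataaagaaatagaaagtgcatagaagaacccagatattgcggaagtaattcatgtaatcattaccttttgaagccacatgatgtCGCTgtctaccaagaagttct
PCDHB2: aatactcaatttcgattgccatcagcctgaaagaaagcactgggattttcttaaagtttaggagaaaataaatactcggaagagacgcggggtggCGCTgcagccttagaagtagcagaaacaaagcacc
PCDHB3: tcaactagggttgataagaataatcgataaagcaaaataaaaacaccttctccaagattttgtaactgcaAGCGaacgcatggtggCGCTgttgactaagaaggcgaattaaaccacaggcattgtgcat
PCDHGC3: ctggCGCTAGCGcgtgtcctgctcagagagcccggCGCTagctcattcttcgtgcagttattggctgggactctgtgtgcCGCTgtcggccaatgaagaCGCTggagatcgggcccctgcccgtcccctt
PCDHGA2: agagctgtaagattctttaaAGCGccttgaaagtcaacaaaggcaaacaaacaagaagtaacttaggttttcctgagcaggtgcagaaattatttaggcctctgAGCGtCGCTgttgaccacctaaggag
These lie at chr5:140926149-140926278, chr5:140841037-140841166, chr5:141094465-141094594, chr5:141100323-141100452, chr5:141475816-141475945 and chr5:141338610-141338739, in the same order.

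CGCT or AGCG stood in both the open and the not open promoters. RefSeq gave a promoter of 250 bases before to 50 after the start for 47 of the 53 members, and 46 of the 47 held CGCT or AGCG, against 71.9% of all 27305 genes with such a sequence. It was found in 24 of 24 members with an accessible bin in at least 1 line and in 22 of 23 without one. The 8-mer held by the most members was AGCGCCAC (reverse complement GTGGCGCT), which contains the core and was found in 13 promoters, all of them PCDHB, in 7 of 8 with an accessible bin and in 6 of 6 without. It was held by 1.384% of all genes. Chosen after the values were seen, the most shared 8-mers of the other clusters also contained the core. They were AGCGACAT (ATGTCGCT) in 9 of 13 PCDHA promoters, 6 of 8 with and 3 of 5 without an accessible bin, against 0.282% of all genes, and ACAGCGGC (GCCGCTGT) in 11 of 20 PCDHG promoters, 5 of 8 with and 6 of 12 without, against 1.98%. Since nearly all members hold the core, and the 8-mers were chosen over open and not open members together, these counts are no test of a difference between them.

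Accessibility was read from the authors' accessible regions, which are divided into bins of 100 bp with the mean fragment coverage of each bin, in 1 table per line. A line's table holds a region only if a peak was called there in at least 3 of the line's libraries. The coverage summed over all bins was 12370094 to 25232000 in the DU-145 libraries, 9142900 to 13606129 in the BT-549 vehicle libraries and 2502510 to 3267024 in the BT-549 DOX libraries, so values in the last are the least precise. Coverage is given as CPM of this sum, so that every value is a share of its library. A promoter window is the sum of the bins within 2 kb of a member's start. As a check of the lines, promoter windows of 5 of 6 epithelial genes (KRT8, KRT18, CDH1, EPCAM and GRHL2, but not KRT5) were held by the DU-145 table and 0 of 6 by the BT-549 table. The BT-549 table held 6 of 6 mesenchymal genes, against 4 of 6 in the DU-145 table, where TWIST1 and CDH2 were missing.

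Both tables held a window for a smaller share of members than of protein-coding genes. The DU-145 table held bins in the windows of 23 of the 53 members (43.4%), compared with 69.6% of all protein-coding genes. The BT-549 table held bins for 14 members (26.4%), compared with 65.5%. By cluster, 10 PCDHA, 7 PCDHB and 6 PCDHG members had bins in DU-145, and 4, 4 and 6 in BT-549. Of these members, 10 had bins in both tables, 13 in DU-145 only and 4 in BT-549 only, and 26 had bins in neither. The tables differ in how members entered. Each member of the BT-549 table had peaks in 3 of 3 vehicle libraries, beside shallow DOX libraries. In DU-145, PCDHB5, PCDHB8 and PCDHB13 had peaks in 2 vehicle libraries and entered with the help of DOX libraries. By kind of gene, the DU-145 table held 3 of 5 C types, 8 of 13 α alternate genes, 7 of 16 β genes, 2 of 12 γ A genes and 3 of 7 γ B genes. The BT-549 table held 3, 2, 4, 4 and 1 of them, which is a description without a test.

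The peak lists of the single libraries, called by the authors with MACS2, gave a map at the level of the library. The regions of the tables were formed from these peaks, so the lists are no independent reading of them. Within 2 kb of the start, 33 members had a called peak in at least 1 library, and 20 had none in any library. Peaks in all 12 libraries were found at PCDHAC1, PCDHB2 and PCDHGC3. The vehicle libraries of DU-145 had peaks at 24, 25 and 20 members in replicates 1, 2 and 3 and those of BT-549 at 16, 15 and 15, so the groups did not overlap (difference of 7.67 members, exact permutation p = 0.1, two-sided, which is the lowest value possible with 3 libraries against 3). PCDHA made most of that difference, with 10 members in each DU-145 vehicle library against a mean of 4.33 ± 0.577 (SD, n = 3) in BT-549 (exact permutation p = 0.1). The PCDHB counts of the lines overlapped, at a mean of 7.33 ± 2.89 in DU-145 and 4.67 ± 0.577 in BT-549 (n = 3 each, exact permutation p = 0.4), and so did the PCDHG counts (5.67 ± 0.577 and 6.33 ± 0.577, n = 3 each, exact permutation p = 0.6). In all, the vehicle libraries had 69240, 83605 and 63271 peaks in DU-145 and 93929, 87598 and 65204 in BT-549. The share of all promoters with a peak in each library was not counted. Whether the line differences are particular to the members was therefore not tested.

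**Figure D1:**
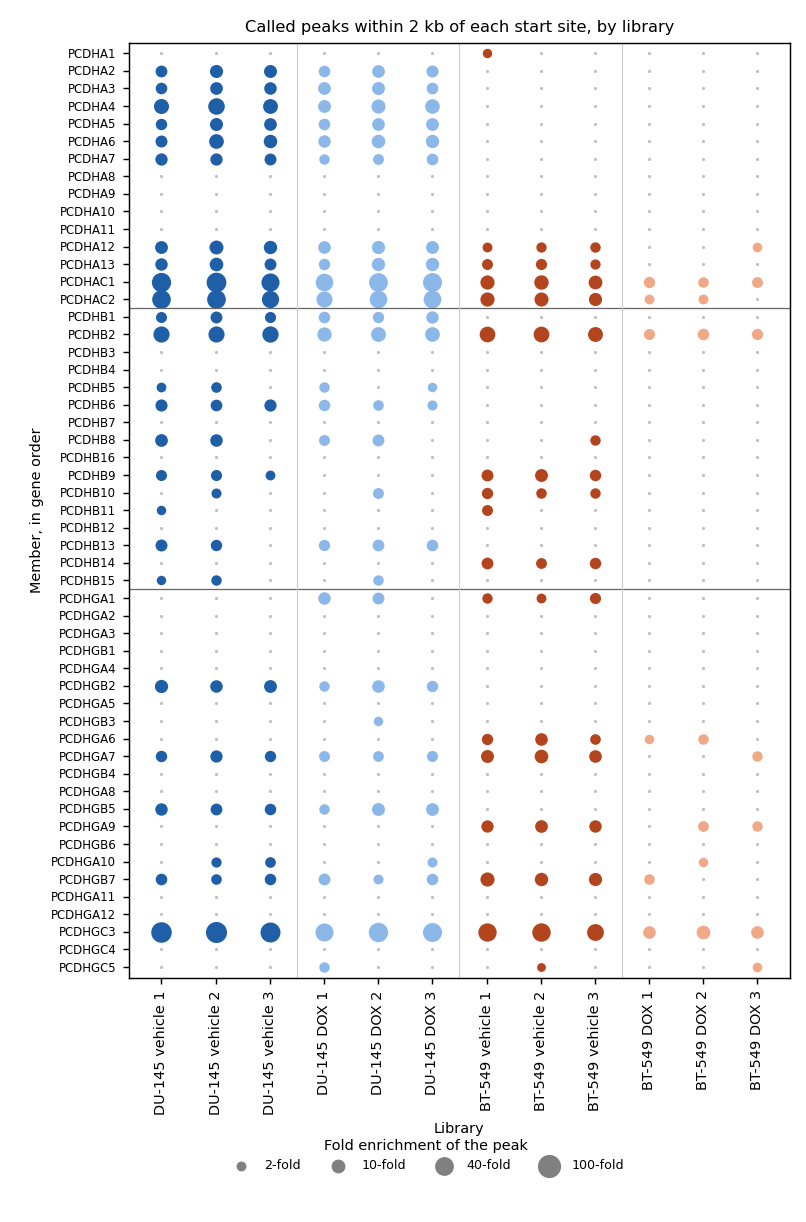
Rows are the 53 members in gene order, columns the 12 libraries, and a circle marks a called peak within 2 kb of the start, its area growing with the square root of the fold enrichment. PCDHA2 to PCDHA7 carried circles in the 6 DU-145 libraries and in none of BT-549, and PCDHAC1, PCDHB2 and PCDHGC3 in all 12.

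Members open in 1 line lay in blocks as well as singly. In the vehicle libraries, 9 members had peaks in 3 of 3 libraries of both lines (PCDHA12, PCDHA13, PCDHAC1, PCDHAC2, PCDHB2, PCDHB9, PCDHGA7, PCDHGB7 and PCDHGC3). Another 10 had peaks in 3 of 3 DU-145 libraries and 0 of 3 BT-549 libraries, namely the run PCDHA2 to PCDHA7, PCDHB1, PCDHB6, PCDHGB2 and PCDHGB5. The converse held for 4 members, PCDHB14, PCDHGA1, PCDHGA6 and PCDHGA9, while 9 members had vehicle peaks in part of the libraries and 21 had none. In the α array the 4 genes PCDHA8 to PCDHA11, between the open runs in DU-145, had no peak in any library.

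Peak strength within the DU-145 run differed several fold. PCDHA4 had the strongest peak of PCDHA2 to PCDHA7, with fold enrichments over local background of 24.8, 36.2 and 23.4 in the DU-145 vehicle libraries, while PCDHA7 had 11.02, 10.99 and 9.69. Including the DOX libraries, members with peaks in at least 3 libraries of DU-145 and in 0 of BT-549 were PCDHA2 to PCDHA7, PCDHB1, PCDHB5 (4 libraries), PCDHB6, PCDHB13 (5 libraries), PCDHB15 (3 libraries), PCDHGB2 and PCDHGB5. PCDHB14 (3 libraries), PCDHGA6 and PCDHGA9 (5 libraries each) had them in BT-549 and in 0 of DU-145. Of the β and γ members open in DU-145 alone, PCDHB5 had 4.41 and 6.11 in vehicle replicates 1 and 2 and no peak in replicate 3, while PCDHGB2 had 14.9, 11.8 and 13.1, above PCDHA7 in each of the 3 vehicle libraries.

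Within each cluster, coverage per bin was highest at PCDHAC1, PCDHB2 and PCDHGC3 in both lines, while the C types PCDHGC4 and PCDHGC5 had no bins in either table. In DU-145 vehicle cells, mean coverage per bin was highest at PCDHAC1 (3.13 CPM), PCDHAC2 (2.42 CPM) and PCDHA4 (1.52 CPM) in PCDHA, at PCDHB2 (1.36 CPM), PCDHB8 (0.59 CPM) and PCDHB1 (0.53 CPM) in PCDHB, and at PCDHGC3 (2.40 CPM), PCDHGB2 (0.80 CPM) and PCDHGA7 (0.73 CPM) in PCDHG. In BT-549 vehicle cells the leading members were PCDHAC1 (1.75 CPM), PCDHAC2 (1.73 CPM) and PCDHA13 (0.84 CPM), PCDHB2 (2.22 CPM), PCDHB9 (1.17 CPM) and PCDHB14 (0.92 CPM), and PCDHGC3 (4.06 CPM), PCDHGA7 (2.16 CPM) and PCDHGB7 (1.46 CPM). C type promoters were also open over longer regions, 1300 to 1500 bp in DU-145 against 300 to 1500 bp for the other members, and 1100 to 1600 bp against 300 to 1100 bp in BT-549. Peak summits lay close to the annotated starts. For the 19 members with a peak in the 3 DU-145 vehicle libraries, the median summit was between 113 bp upstream and 372 bp downstream, and it was downstream, inside the first exon, for 14 of them. For the 14 such members of BT-549 it was between 65 bp upstream and 375 bp downstream, and downstream for 10. PCDHGC4 had no peak in any library, and PCDHGC5 had peaks in 1 DU-145 and 2 BT-549 libraries.

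Between the lines, the members open in both went in opposite directions by cluster. Vehicle libraries were compared over the bins held by both tables, which 9 members had in their windows (edgeR's quasi-likelihood test, adjusted p under 0.05 over 12466 windows). In DU-145 3 members were higher, all PCDHA, and 5 were lower, all PCDHB or PCDHG. Of all windows, 33.0% were higher and 40.6% lower, so the number of calls was near the background in both directions and the split by cluster is given as a description. The median log2 fold was -0.79 over the 9 members and -0.08 over all windows. Copy number and accessibility cannot be told apart in a comparison of 2 cell lines, nor, in bulk libraries, a larger share of open cells and a stronger signal per cell.

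PCDHAC1 had 46.6, 41.4 and 42.2 CPM in DU-145 vehicle replicates 1 to 3 and 25.2, 20.8 and 22.2 CPM in BT-549. Every DU-145 library was above every BT-549 library, and the log2 fold was 0.93 (SE 0.12, adjusted p = 9.87e-10), or 1.90-fold. PCDHAC2 was at 33.4, 27.0 and 28.4 CPM against 19.9, 19.5 and 17.0 CPM (log2 fold 0.65, SE 0.13, adjusted p = 2.07e-05), and PCDHA12 at 5.51, 5.49 and 5.69 CPM against 2.18, 3.04 and 3.91 CPM (log2 fold 0.88, SE 0.25, adjusted p = 0.00137). For PCDHA13, also without overlap, the log2 fold of 0.38 (SE 0.21, adjusted p = 0.0994) did not pass.

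The γ members open in both lines were all lower in DU-145. PCDHGC3, the most covered member of its cluster, had 32.1, 37.3 and 37.7 CPM in DU-145 and 65.8, 63.2 and 59.99 CPM in BT-549 (log2 fold -0.82, SE 0.10, adjusted p = 4.99e-10). PCDHGA7 had 2.56, 3.06 and 3.17 CPM against 9.58, 10.8 and 8.62 CPM (log2 fold -1.72, SE 0.22, adjusted p = 1.71e-09). PCDHGB7 had 3.36, 1.52 and 3.11 CPM against 12.2, 7.55 and 7.45 CPM (log2 fold -1.84, SE 0.26, adjusted p = 1.23e-08). The lines did not overlap at any of the 3. At PCDHGC3, 9 of the 14 shared bins were lower, but its most covered bin did not pass (log2 fold -0.22, SE 0.12, edgeR adjusted p = 0.109). Fold enrichment of the PCDHGC3 peak was higher in DU-145, at 85.4, 94.0 and 76.4 against 54.4, 55.3 and 38.6 in the vehicle libraries. At PCDHGA7 and PCDHGB7 the most covered bin (log2 fold -1.55 and -2.01) and fold enrichment were lower in DU-145. Both β members were lower in DU-145 as well. PCDHB2 had 13.4, 13.1 and 14.1 CPM against 21.2, 23.7 and 25.5 CPM (log2 fold -0.79, SE 0.14, adjusted p = 3.17e-06), and PCDHB9 had 1.62, 1.25 and 1.39 CPM against 4.38, 5.93 and 3.71 CPM (log2 fold -1.76, SE 0.28, adjusted p = 2.11e-07). With the trend on GC content removed, PCDHB2 kept its sign but not its call (log2 fold -0.25, adjusted p = 0.125).

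**Figure D2:**
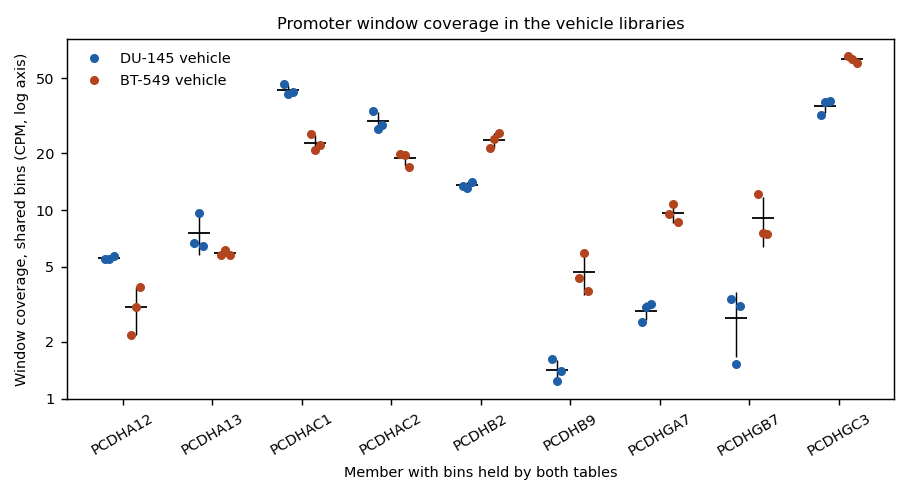
Coverage of the promoter window over bins of both tables (CPM, log axis) for the 9 members, with a point per vehicle library and black bars for the mean ± SD (n = 3). DU-145 lies above BT-549 at the 4 PCDHA members and below it at the 5 PCDHB and PCDHG members, without overlap at any.

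Bin by bin, the same split was seen. The clusters held 82 bins of both tables in 10 regions. Of these, 18 were higher in DU-145 and 43 lower (edgeR, adjusted p under 0.05), against 18.1% higher and 46.3% lower over all 321378 bins of both tables. In PCDHA, 18 of 34 bins were higher and 0 lower. In PCDHB 14 of 14 bins were lower, and in PCDHG 29 of 34.

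Among the regions with bins in both tables, the largest line difference was not at a promoter. The region lay 3′ of the last γ variable exon, in the intron between shared PCDHG exons 2 and 3 (141505393 to 141505481 and 141510947 to 141512975 on chromosome 5). In BT-549 a region of 3300 bp (chr5:141507001-141510300) was open there, 33 bins long. It had 3.53, 3.56 and 3.71 CPM per bin in the vehicle libraries and made up 52.3% ± 2.02 of the summed PCDHG coverage of that line. In DU-145 the open region was 1100 bp (chr5:141508901-141510000) and made up 9.62% ± 0.935 (n = 3). Over the 11 bins in both tables, the DU-145 vehicle libraries had 0.484, 0.526 and 0.468 CPM per bin and the BT-549 vehicle libraries 6.71, 6.13 and 6.14 CPM per bin, 12.9-fold more. All 11 bins were lower in DU-145, and the bin with the highest coverage had a log2 fold of -3.32 (SE 0.15, edgeR adjusted p = 4.75e-35). Regions held by a single table have no value in the other line and were not ranked.

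The α cluster had the converse. In the intron between its shared exons 2 and 3, a region of 2000 bp (chr5:141002901-141004900, 4.73 kb before shared exon 3) was open in the DU-145 table and was not held by the BT-549 table. It had 3.88, 3.49 and 3.66 CPM per bin in the DU-145 vehicle libraries and made up 30.8% ± 1.86 of the summed PCDHA coverage (SD, n = 3). Peaks were called in it in the 6 DU-145 libraries and in 1 BT-549 library. A smaller region just upstream (chr5:141001301-141002600) had peaks in the 6 DU-145 libraries and in 0 of BT-549. Enhancers of the α cluster are known from such an intron and from sequence beyond the last shared exon, but whether these regions act as enhancers was not tested. Another region lay between the α and β clusters, 9.87 kb before PCDHB1 and 27.4 kb after the last α exon (chr5:141039701-141041500 in DU-145). Its center in DU-145 was 304 bp from the annotated start of the gene ENSG00000288892. With peaks in all 12 libraries, it was higher in DU-145 in 9 of its 13 shared bins, at 3.08 ± 0.274 against 1.84 ± 0.201 CPM per bin (n = 3 each). The promoter of TAF7, a gene between the β and γ clusters, did not show such a gap, at 3.70 ± 0.229 and 3.64 ± 0.137 CPM per bin.

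**Figure D3:**
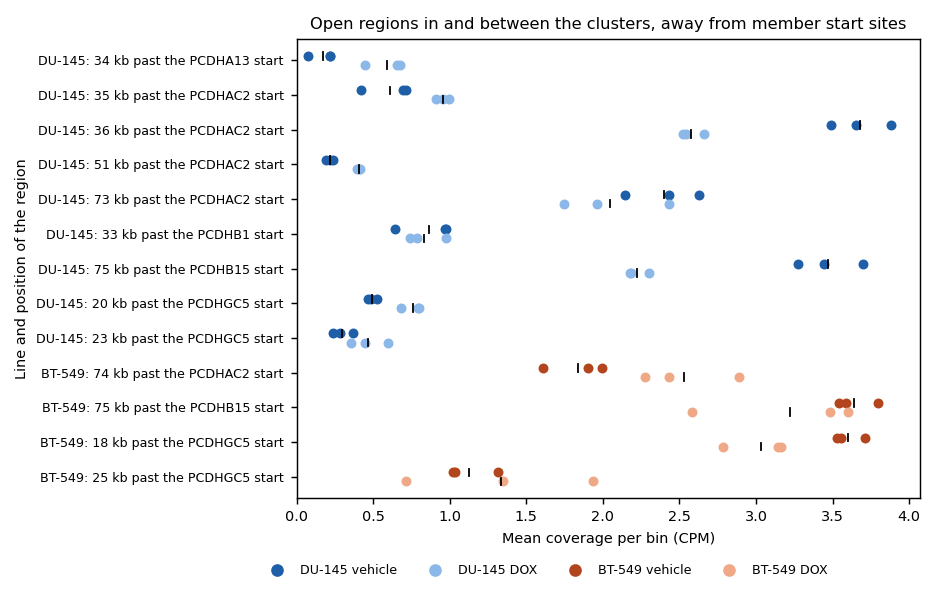
Mean coverage per bin (CPM) of the 9 DU-145 and 4 BT-549 regions away from member starts, named by line and distance past the last member start. Points are libraries and black ticks means, and the DU-145 region 36 kb past the PCDHAC2 start is the highest of that line in vehicle cells and lower with DOX.

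In DU-145, DOX lowered coverage moderately at a few members. Of 23 windows tested, 5 were lower and 1 higher with DOX (edgeR, adjusted p under 0.05 over 13929 windows), against 38.8% lower and 8.34% higher over all windows. The median log2 fold was -0.15 over the members and -0.17 over all windows, so the members did not stand out from the rest by count or median. The scale bears on these calls. DESeq2, with its own size factors, called 0 lower and 0 higher (2 lower and 0 higher at an unadjusted p under 0.05). Scaling to the shared bins on chromosome 5 within 5 Mb outside the clusters, chosen after seeing the data, called 0 lower. Those flanking bins together were at 5684 ± 99.5 CPM in vehicle and 4795 ± 37.0 CPM in DOX cells (n = 3 each, log2 ratio -0.25, exact permutation p = 0.1).

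Among the called members, PCDHA4 had 19.7, 24.8 and 24.0 CPM in vehicle and 15.5, 17.1 and 16.5 CPM in DOX replicates 1 to 3, without overlap (log2 fold -0.48, SE 0.13, adjusted p = 0.00156). PCDHB2 had 13.4, 13.1 and 14.1 CPM and then 8.60, 8.68 and 10.5 CPM (log2 fold -0.55, SE 0.16, adjusted p = 0.00327). The other calls had larger errors or smaller changes. PCDHB9 was at 1.62, 1.25 and 1.39 CPM and then 0.726, 0.602 and 0.758 CPM (log2 fold -1.002, SE 0.37, adjusted p = 0.0221), and PCDHB9 peaks were called in the 3 vehicle libraries and in 0 DOX libraries. Its bins entered the table through those vehicle peaks alone, which favors lower DOX values, so the PCDHB9 call is no independent test. PCDHA7 was at 6.12, 6.07 and 6.90 CPM and then 3.37, 3.67 and 5.98 CPM (log2 fold -0.54, SE 0.22, adjusted p = 0.0391). PCDHGC3 was at 32.3, 37.5 and 38.1 CPM and then 29.2, 30.5 and 30.6 CPM (log2 fold -0.26, SE 0.10, adjusted p = 0.0364). In each of these members every DOX library was below every vehicle library. The calls of PCDHA7 and PCDHGC3 were each lost in 5 of the 6 alternatives that leave out 1 library, being kept only without DOX replicate 3 and without vehicle replicate 1, respectively. PCDHB9 lost its call without vehicle replicate 1 or DOX replicate 2, while PCDHA4 and PCDHB2 kept theirs with each library left out.

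The single higher call was PCDHGA1, whose window held 1 bin, at 0.0224, 0.0533 and 0.000 CPM in vehicle libraries, then 0.318, 0.176 and 0.161 CPM in DOX libraries (log2 fold 2.91, SE 1.16, adjusted p = 0.0354). With coverage near 0 in the vehicle libraries, this fold depends on the prior count of the fit, and the call was lost without vehicle replicate 1 or 3. Without DOX replicate 1 or 2, no member was called higher either. The bin is the edge of a region more than 2 kb upstream of PCDHGA1. That region entered the DU-145 table through peaks in DOX libraries alone, so this call is no independent test. The remaining 17 windows did not pass, among them PCDHAC1 at 46.9, 42.1 and 42.6 CPM in vehicle libraries, then 40.5, 38.0 and 40.8 CPM in DOX libraries (log2 fold -0.14, SE 0.095, adjusted p = 0.219). The number of members with a called peak was 23, 24 and 21 in the DOX libraries, overlapping the vehicle counts (difference of -0.33 members, exact permutation p = 1).

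**Figure D4:**
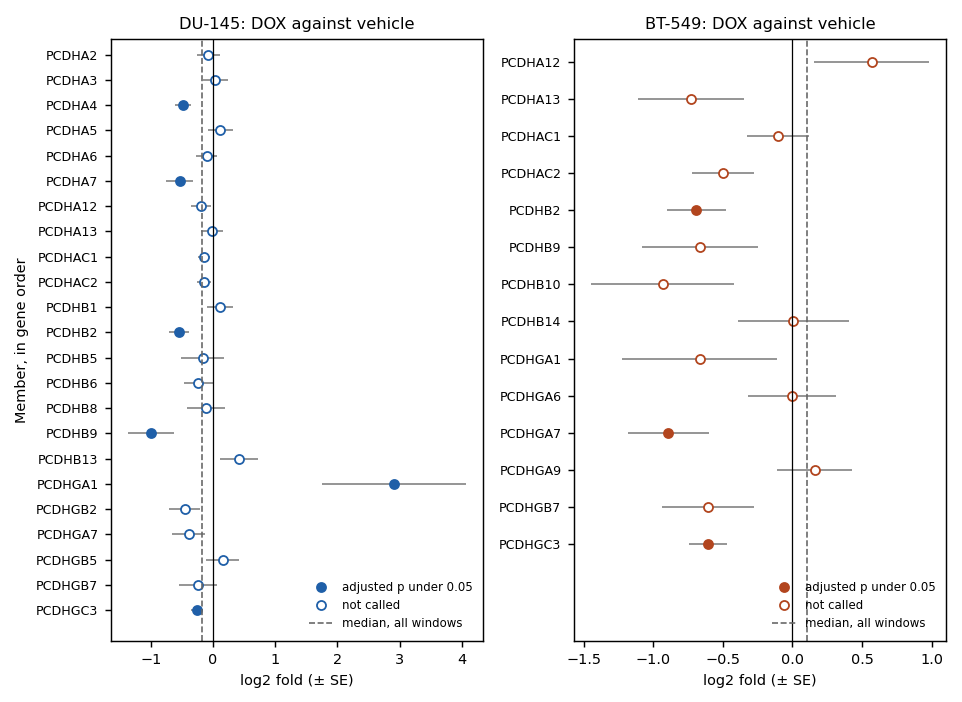
log2 fold of DOX against vehicle (± SE from edgeR) per member window in each line, filled where the adjusted p was under 0.05, with a dashed line at the median of all windows. In DU-145 the points scatter around the dashed line apart from PCDHGA1, and in BT-549 the 3 called members lie to its left.

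Inside the clusters, 17 of 249 DU-145 bins were higher with DOX and 26 lower (edgeR, adjusted p under 0.05), that is 6.83% and 10.4%, against 22.8% and 11.8% of all 709226 bins. The split was by position. Of the 187 bins near a member start, 3 were higher and 14 lower, while of the 62 bins elsewhere in the clusters 14 were higher and 12 lower. At the study's cutoffs of a fold of 2 and an adjusted p under 1e-05, 0 cluster bins were higher and 0 lower, against 5.0% and 1.59% of all bins. DESeq2 and limma gave 0 and 0 at these cutoffs as well, and 24 bins were higher and 34 lower at an unadjusted p under 0.05 in edgeR.

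The DU-145 region with the highest coverage away from member starts lost coverage with DOX, and several weakly covered ones were higher. The α intron region at chr5:141002901-141004900 fell from 3.88, 3.49 and 3.66 to 2.66, 2.54 and 2.52 CPM per bin, and its most covered bin had a log2 fold of -0.44 (SE 0.095, adjusted p = 0.000162). Its share of the PCDHA sum was 30.8% ± 1.86 in vehicle and 25.1% ± 1.55 in DOX cells (SD, n = 3). A weakly covered region 9.30 kb before PCDHAC1 (chr5:140916401-140917000) rose from 0.221, 0.219 and 0.0719 to 0.676, 0.446 and 0.655 CPM per bin (log2 fold of its most covered bin 1.79, SE 0.38, adjusted p = 0.000103). In the other weakly covered regions the most covered bin did not pass, as at chr5:141017801-141018200 (log2 fold 1.05, SE 0.42, adjusted p = 0.0503) and at chr5:141084501-141085100, which overlapped between treatments (-0.05, SE 0.23, adjusted p = 0.893). As a whole, chr5:141001301-141002600 rose from 0.608 ± 0.164 to 0.954 ± 0.0424 CPM per bin (SD, n = 3), without overlap. So did chr5:141017801-141018200 (0.216 ± 0.0223 to 0.406 ± 0.0086) and, in PCDHG, chr5:141508901-141510000 (0.492 ± 0.0299 to 0.758 ± 0.0652). Peaks at chr5:140916401-140917000 and chr5:141017801-141018200 were called in every DU-145 DOX library but in a single vehicle library each. Both regions thus needed the DOX peaks to enter the table, which favors higher DOX values. Their rises and p-values are therefore no independent test. The region at chr5:141512101-141512700 overlapped between treatments. The region between the α and β clusters with peaks in all 12 libraries overlapped between treatments as a whole, though its most covered bin fell (log2 fold -0.52, SE 0.13, adjusted p = 0.000611). The TAF7 promoter also fell, from 3.28, 3.44 and 3.70 to 2.19, 2.30 and 2.18 CPM per bin (most covered bin -0.63, SE 0.12, adjusted p = 2.05e-05).

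In BT-549, the median DOX effect was lower at the members than over all windows. Of 14 windows tested, 3 were lower and 0 higher with DOX (edgeR, adjusted p under 0.05 over 13111 windows), against 6.37% lower and 18.9% higher over all windows. DESeq2 and limma also called 3 lower and 0 higher, and at an unadjusted p under 0.05 edgeR had 4 lower and 0 higher. The median log2 fold was -0.61 over the members and 0.10 over all windows. Each tested member had peaks in 3 of 3 vehicle libraries of this line, while PCDHA13, PCDHB9, PCDHB10, PCDHB14 and PCDHGA1 had them in 0 DOX libraries. Entry to the table through vehicle peaks alone favors lower DOX values, so the contrast with all windows is a description. How far all windows share this was not tested. The direction over all windows depended on the processing, with a median of -0.08 (8.11% higher and 15.1% lower) with the GC trend removed and of 0.0017 under DESeq2. The flanking bins were close to level, at a log2 ratio of -0.05.

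PCDHGC3 had 68.4, 65.6 and 61.1 CPM in vehicle libraries, then 41.6, 49.99 and 37.5 CPM in DOX libraries, without overlap (log2 fold -0.61, SE 0.14, adjusted p = 0.000886), and its call held in each of the 14 alternatives run. PCDHB2 had 21.8, 25.0 and 26.3 CPM and then 15.5, 17.7 and 12.7 CPM (log2 fold -0.69, SE 0.21, adjusted p = 0.0128), but lost its call without vehicle or without DOX replicate 3. PCDHGA7 had 12.6, 14.6 and 11.63 CPM and then 5.92, 4.37 and 10.1 CPM (log2 fold -0.89, SE 0.29, adjusted p = 0.0208), and lost its call in 4 of the alternatives that leave out a library, with an adjusted p of up to 0.0942. The most covered bin did not pass at PCDHGC3 (log2 fold -0.42, edgeR adjusted p = 0.172), PCDHB2 (-0.68, adjusted p = 0.0983) or PCDHGA7 (-0.74, adjusted p = 0.243). As whole windows, these members did not overlap between treatments. Others did, such as PCDHAC1 at 25.2, 20.8 and 22.2 CPM in vehicle libraries, then 32.5, 12.5 and 18.6 CPM in DOX libraries (log2 fold -0.11, SE 0.22, adjusted p = 0.772).

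Peaks were called at 6, 7 and 7 members in the BT-549 DOX libraries, against 16, 15 and 15 in vehicle (difference of -8.67 members, exact permutation p = 0.1). The DOX libraries of this line also had fewer peaks in all, 30450 to 39837 against 65204 to 93929, at their lower depth, whose part in the difference was not tested. Fold enrichment moved likewise. At PCDHGC3 it was 54.4, 55.3 and 38.6 without DOX, then 12.3, 17.1 and 12.4 with it.

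Of 136 BT-549 bins in the clusters, 16 were lower and 3 higher with DOX (edgeR, adjusted p under 0.05), against 5.91% and 5.03% of all 472935 bins. The limit on how windows entered the BT-549 table holds for these bins too. At the study's cutoffs for this line (a fold of 2 and an adjusted p under 0.01), 2 were lower and 1 higher, against 2.87% and 2.07%, and DESeq2 gave 0 and 0. The γ intron region at chr5:141507001-141510300 went from 3.53, 3.56 and 3.71 to 3.16, 3.14 and 2.79 CPM per bin, and its most covered bin fell (log2 fold -0.57, SE 0.17, adjusted p = 0.0117). The region between the α and β clusters was at 1.997, 1.61 and 1.90 CPM per bin in vehicle libraries, then 2.89, 2.27 and 2.43 CPM per bin in DOX libraries, but its most covered bin did not pass (log2 fold 0.57, SE 0.24, adjusted p = 0.109).

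No member passed the test of whether DOX acted differently in the 2 lines. For 9 windows of bins in both tables, the interaction of line and DOX gave 0 higher and 0 lower calls in edgeR (adjusted p under 0.05), against 4.87% higher and 38.2% lower over all windows. At an unadjusted p under 0.05, 2 were higher and 0 lower. DESeq2 called 3 higher and limma 0. The differences with the smallest adjusted p were 0.50 at PCDHAC2 (SE 0.24, adjusted p = 0.0808), 0.36 at PCDHGC3 (SE 0.17, adjusted p = 0.0881) and 0.75 at PCDHGA7 (SE 0.41, adjusted p = 0.140), each on the log2 scale and in the direction of a more negative DOX effect in BT-549. A p over the threshold does not show that the lines responded alike.

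Summed over all bins of a cluster, coverage was lower with DOX in each cluster and line, by amounts that differed. In DU-145, PCDHA went from 238 ± 1.98 to 206 ± 6.94 CPM (log2 ratio -0.21), PCDHB from 34.8 ± 1.94 to 29.5 ± 1.65 CPM (-0.24) and PCDHG from 56.4 ± 2.79 to 52.3 ± 1.496 CPM (-0.11), each SD over n = 3 and without overlap (exact permutation p = 0.1). These ratios were close to that of the flanking bins (-0.25) or nearer 0. In BT-549, PCDHB went from 35.7 ± 2.06 to 23.2 ± 1.16 CPM (-0.62) and PCDHG from 227 ± 2.56 to 177 ± 12.5 CPM (-0.36), without overlap (n = 3, exact permutation p = 0.1), while PCDHA overlapped at 50.7 ± 2.23 and 42.6 ± 11.97 CPM (-0.25, exact permutation p = 0.4). The BT-549 sums include bins that entered the table through vehicle peaks alone. Over the bins of both tables, vehicle DU-145 had 86.2 CPM in PCDHA against 50.5 CPM in BT-549 (log2 ratio 0.77), 14.97 against 28.2 CPM in PCDHB (-0.91) and 46.7 against 151 CPM in PCDHG (-1.69), each without overlap (n = 3, exact permutation p = 0.1).

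**Figure D5:**
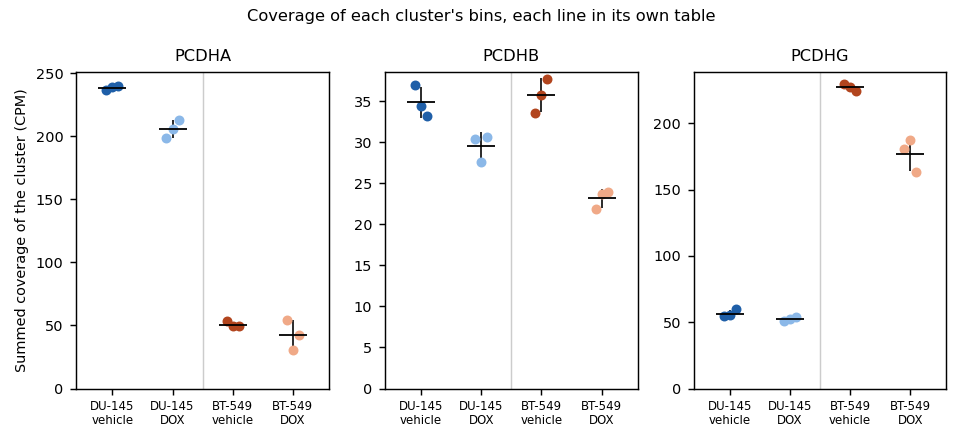
Summed coverage (CPM) of the bins of each cluster in each line's own table, with a point per library and black bars for the mean ± SD (n = 3). PCDHA is high in DU-145 and PCDHG in BT-549, and because the tables hold different bins, levels compare treatments within a line.

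Genes related to the clusters by family, regulation or position were read with the same fit. Of 12 non-clustered protocadherins, single genes without shared exons, 4 had a window in the DU-145 table and 10 in the BT-549 table. All 4 windows with bins of both tables (PCDH1, PCDH8, PCDH12 and PCDH19) were lower in DU-145 vehicle cells, with a median log2 fold of -1.48. Over all windows 40.6% were lower in this comparison. The counts with DOX in this and the other gene lists stand beside 8.34% of all windows higher and 38.8% lower in DU-145, and 18.9% higher and 6.37% lower in BT-549. With DOX, 0 rose and 2 of 4 fell in DU-145 (PCDH12, -0.43, and PCDH19, -0.75), and 0 rose and 3 of 10 fell in BT-549 (PCDH9, -0.30, PCDH17, -0.43, and PCDH18, -0.63). Among 24 known regulators of the clusters (CTCF, cohesin and its loaders, DNA methyltransferases, TET enzymes and silencing factors), 0 of 22 tested rose and 15 fell in DU-145 (median log2 fold -0.37, against -0.17 over all windows), and 7 of 23 rose and 1 fell in BT-549 (median 0.15, against 0.10), so the direction in each line was also that of most calls over all windows. CTCF, which binds the conserved element, had a log2 fold of -0.42 (SE 0.065, adjusted p = 6.16e-07) in DU-145 and 0.53 (SE 0.11, adjusted p = 0.000334) in BT-549 at its promoter, and the difference between these effects was -0.95 (SE 0.12, adjusted p = 2.53e-08). SMCHD1, a silencing factor of the clusters, had -0.27 (SE 0.078, adjusted p = 0.00380) and 0.66 (SE 0.13, adjusted p = 0.000221). Promoter accessibility does not give the amount of these proteins.

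Of 12 kinases and other partners of protocadherin cytoplasmic domains, 1 of 11 tested rose and 7 fell in DU-145 with DOX (median log2 fold -0.30), and 1 of 11 rose and 0 fell in BT-549 (median 0.10). Of 17 genes beside or between the clusters, 15 had a DU-145 window, but HARS1 and HARS2, HDAC3 and RELL2, and IK and NDUFA2 share their bins in pairs, which leaves 12 distinct windows. Of these 12, 0 rose and 10 fell with DOX in DU-145 (median -0.49), against 38.8% lower over all windows. In BT-549, 0 of 13 distinct windows rose and 1 fell (median -0.14, against 0.10 over all windows). In DU-145 vehicle cells, 1 of 12 distinct windows was higher and 5 were lower than in BT-549, against 33.0% and 40.6% of all windows. The median of the member windows with DOX in DU-145 was -0.15, and its difference from that of the neighbours was not tested.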

How the data were processed

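Per the study's methods, bwa-mem served for alignment of the ATAC-seq fragments (GRCh38), Picard for removal of duplicates and MACS2 (2.2.7.1 per the labels) for peaks in each replicate, at a q-value of 0.05. Regions found in at least 3 replicates of a line were split into bins of 100 bp. For each bin the authors deposited an estimated count, its mean fragment coverage from bigWigAverageOverBed, without normalization for depth. The deposited peak lists give the fold enrichment and −log10 of the p-value and q-value, as the authors' MACS2 wrote them. How reads that fit several of these similar genes were treated is not given in the sources used here.

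Bins were assigned by their center to GENCODE v44 starts. Windows and bins with a total of at least 10 were rounded and tested with edgeR 4.0.16 (quasi-likelihood, robust, R 4.3.3) in place of the study's DESeq2, with library sums as sizes and Benjamini-Hochberg adjustment over the whole table. The SE of a log2 fold is its size over the square root of F. Exact two-sided permutation tests served cluster sums and peak counts. Alternatives were TMM factors, DESeq2 1.42.0, limma 3.58.1 (log2 CPM with a pseudocount of 1), no filter, removal of the GC trend, windows of 1 kb, other sums, the replicate number as a block, and each library left out in turn. The edgeR fits were also run on simulated counts, with changes larger than most of those reported here. That check does not bear on the smaller changes or on weakly covered bins. The rule for the members used symbols alone, but members and lists were chosen with earlier results of these data known. Named with values were, per comparison, up to 10 members with an adjusted p under 0.05, the 3 most covered members of each line and cluster, and members with peaks in at least 3 libraries of 1 line and none of the other. The replicate numbers did not pair the libraries.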

Additional observations from a re-analysis of the deposited data

Results flagged for a closer look

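One region lay outside the member windows apart from its edge and had signal in the DU-145 DOX libraries above that of the vehicle libraries. It is the region of 500 bp upstream of PCDHGA1 (chr5:141328101-141328600, GRCh38), which lies inside the long noncoding RNA gene ENSG00000272070, 2140 bp from the start of that gene, and has 1 of its 5 bins within 2 kb of the PCDHGA1 start. It had 0.011, 0.038 and 0.023 CPM per bin in vehicle replicates 1 to 3 and 0.687, 0.507 and 0.496 CPM per bin with DOX. Peaks were called there in the 3 DU-145 DOX libraries and in none of the other 9. The region thus entered the DU-145 table through the DOX libraries alone, so its rise and the p-value below are no independent test. The most covered bin had a log2 fold of 4.33 (SE 0.57, edgeR adjusted p = 3.8e-09), a size that depends on the prior count, because its coverage was 0.00, 1.32 and 0.81 fragments in vehicle cells against 21.3, 19.8 and 16.7 with DOX. Whether it bears on PCDHGA1 was not tested.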

How the results depend on the processing

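No called member changed sign under any alternative. The direction and call of PCDHGC3 in BT-549 held under every alternative, and so did the 3 higher and 5 lower members between the lines with each library left out. In DU-145, the 1 higher member became 0 under DESeq2, limma and windows of 1 kb. The 5 lower members became 8 with TMM factors, 10 with the GC trend removed, 0 under DESeq2 and 0 with sums over the flanking bins, the scaling chosen after seeing the data. The difference in the DOX effect gave 3 higher members under DESeq2, 1 with the GC trend removed and 2 with sums over the shared bins. For cluster bins in DU-145, the 17 higher became 2 under DESeq2 and 10 with the GC trend removed, and the 26 lower became 40 with TMM factors and 55 with the GC trend removed. In BT-549, the 3 higher and 16 lower bins became 0 and 0 under DESeq2, and the lower became 27 with the GC trend removed. The cause was not tested.

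The log2 ratios of the cluster sums moved with TMM factors to -0.35 for PCDHA, -0.37 for PCDHB and -0.25 for PCDHG with DOX in DU-145, and to 1.24 for PCDHA, -0.45 for PCDHB and -1.23 for PCDHG between the lines. Over the bins near member starts alone, PCDHG was at -0.26 with DOX in DU-145, -0.50 with DOX in BT-549 and -0.98 between the lines.

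With each library left out, DU-145 windows had 0 to 1 higher and 3 to 4 lower members, with 0 higher and 3 lower without vehicle replicate 1, vehicle replicate 3, DOX replicate 1 or DOX replicate 2. BT-549 windows had 2 to 3 lower members. The difference in the DOX effect had 0 to 1 in each direction, with 1 each without BT-549 DOX replicate 2. DU-145 bins had 11 to 16 higher (11 without vehicle or DOX replicate 1) and 20 to 23 lower. BT-549 bins had 1 to 2 higher (1 without vehicle replicate 2, DOX replicate 1 or DOX replicate 2) and 4 to 15 lower (5, 9 and 4 without DOX replicates 1, 2 and 3).

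The share of higher among all called windows or bins also depended on the scale. For windows it was 17.7% in DU-145 (48.8% under DESeq2, 68.0% with flanking sums), 74.8% in BT-549 (55.8% under DESeq2, 34.9% with the GC trend removed), 44.9% between the lines (74.2% with TMM factors, 61.5% with flanking sums) and 11.3% for the difference in the DOX effect (48.7% under DESeq2, 27.4% with shared sums). For bins it was 65.9% in DU-145 (54.4% with TMM factors, 49.9% under DESeq2, 46.0% with the GC trend removed), 46.0% in BT-549 (31.8% with the GC trend removed, 36.2% under limma) and 28.1% between the lines (50.9% with TMM factors, 55.1% under DESeq2, 43.3% with the GC trend removed, 40.1% with flanking sums).

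The replicate numbers did not pair the libraries. Same-numbered vehicle and DOX libraries correlated in their deviations at 0.18, 0.10 and -0.04 in DU-145 and -0.01, 0.12 and 0.05 in BT-549. With the replicate block, the windows had 1 higher and 5 lower members in DU-145, 0 and 3 in BT-549, 3 and 5 between the lines and 0 and 0 for the difference, and the bins 16 and 25, 2 and 17, and 18 and 43 in the first 3 comparisons. The shallow BT-549 DOX libraries limit what could be seen in that line.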
